A study of Mus musculus with 18 samples.

Results

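The unfolded protein and integrated stress genes are 32 of the 19475 genes measured in these macrophages. They were chosen by name from textbook knowledge, with earlier results of these data already known. All 32 were measured on a probe set that the platform assigns to that gene alone, and the gene listed as Ero1l appears under its current symbol, Ero1a. Sorted by the sensor they are best known to answer to, 8 belong to the PERK/ATF4 branch, 11 to the IRE1/XBP1 branch and 13 to the ATF6 branch. How the genes are sorted is a convention, since many of the chaperone genes answer to more than 1 sensor.

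The cells were primary macrophages grown from mouse bone marrow in medium conditioned by L929 cells and taken on day 7 of differentiation. The donors, 94% C57BL/6 with 6% 129/Ola, were Wbp7-/- (KO) or Wbp7+/- (HET). The product of Wbp7, also named Kmt2b, methylates lysine 4 on histone H3. Both genotypes were studied without treatment and after 2 h or 4 h with lipopolysaccharide (LPS) at 10 ug/ml, the bacterial product sensed by Tlr4. Each of the 6 groups (KO untreated, KO with LPS for 2 h, KO with LPS for 4 h, and the same 3 for HET) had 3 Affymetrix arrays. All groups carry at least 1 lost copy of Wbp7, so HET is the only genotype that KO is set against, and the labels do not say how the loss was made.

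The unfolded protein response senses misfolded protein in the endoplasmic reticulum (ER) through the membrane proteins PERK (gene Eif2ak3), IRE1 (Ern1) and ATF6. PERK phosphorylates the translation factor eIF2 and thereby favours translation of ATF4, IRE1 splices the Xbp1 transcript into one that encodes an active factor, and ATF6 is cut to release its own. The factors raise transcription of chaperones, of the ER-associated degradation (ERAD) machinery and, through ATF4, of amino acid and stress genes. The integrated stress response is the eIF2 and ATF4 arm, which other kinases can also start. In macrophages, Toll-like receptor signals are known to engage parts of this network without classical ER stress.

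The promoters of the ER genes carry known response elements, which are shown here because they mark the genes that ATF6 and XBP1 are known to bind. Promoter sequences (250 bases before to 50 bases after the start) came from RefSeq on mouse build GRCm38.p6 and were found for 28 of the 32 genes. The names without an entry are Hyou1, Manf, Derl1 and Atf6. The ER stress response element (ERSE: CCAAT, then 9 bases of any kind, then CCACG; both strands searched) lay in the promoters of 8 of these 28 genes, and in 0.119% of all 32851 promoters. Capitals mark the fixed letters, and each site is written in the direction of the element with its coordinates and strand.
Hspa5, chr2:34772025-34772043, plus strand: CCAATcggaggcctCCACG
Pdia6, chr12:17266491-17266509, plus strand: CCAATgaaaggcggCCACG
Canx, chr11:50325800-50325818, minus strand: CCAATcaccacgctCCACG
Syvn1, chr19:6046532-6046550, plus strand: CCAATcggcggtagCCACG
Dnajc3, chr14:118937827-118937845, plus strand: CCAATcagcgccaaCCACG
Creld2, chr15:88819520-88819538, minus strand: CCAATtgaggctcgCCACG
Calr, chr8:84847075-84847093, plus strand: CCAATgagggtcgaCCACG
Hsp90b1, chr10:86705638-86705656, minus strand: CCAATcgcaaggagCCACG
Hsp90b1, chr10:86705533-86705551, plus strand: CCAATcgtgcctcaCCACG

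The second form of the element (ERSE-II: ATTGG, then 1 base of any kind, then CCACG) lay in 0.0365% of all promoters and in those of Dnajb11 and Herpud1. The element bound by ATF4 with a C/EBP partner (CARE, TTGCATCA) lay in 0.895% of all promoters and in those of Herpud1 and Chac1. The nutrient-sensing element of Asns (NSRE-1, TGATGAAAC) lay in 0.247% of all promoters and, among the members, in that of Asns. The XBP1 element (UPRE, TGACGTGG) lay in 0.676% of all promoters and in those of no member.
Dnajb11 ERSE-II, chr16:22857852-22857862, plus strand: ATTGGcCCACG
Chac1 CARE, chr2:119351049-119351056, plus strand: TTGCATCA
Asns NSRE-1, chr6:7693224-7693232, minus strand: TGATGAAAC
The 250 bases before the start of Herpud1 (chr8:94386179-94386428, plus strand) are shown because Herpud1 is the member that changed in most comparisons below. In capitals are, in order, its CARE and its ERSE-II, with the base that the ERSE-II leaves free also in capitals.
Herpud1: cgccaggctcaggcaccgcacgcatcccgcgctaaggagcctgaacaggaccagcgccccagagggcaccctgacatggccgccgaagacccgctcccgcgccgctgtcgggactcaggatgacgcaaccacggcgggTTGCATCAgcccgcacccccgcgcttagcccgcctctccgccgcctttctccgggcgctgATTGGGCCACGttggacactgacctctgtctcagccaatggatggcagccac
None of the 5 elements matched in the promoters of Eif2ak3 and Ppp1r15a, which says only that these letters are not in these windows. A match is a description of the sequence, and no binding was measured.

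The values are log2 expression per probe set, with a median per array of 8.05 to 8.13, and the number of arrays limits their precision. The lower quartile of an array was 6.78 to 7.09, and every member exceeded it on every array. Nothing states that the 3 arrays of a group came from separate mice or cultures, so p-values measure the spread between these arrays, which may be technical. Wbp7 itself differed little on its probe set (KO minus HET −0.24 untreated, −0.06 at 2 h and −0.09 at 4 h, none past the test), so it does not check the genotype labels. Pigp was lower in KO on both of its single-gene probe sets, by −0.56, −0.38 and −0.50 on the one with the higher mean and by −4.16, −4.04 and −3.49 on the other (all past the test). All 11 macrophage markers lay at the 83.7th percentile of mean signal or above, and all 10 LPS response genes of a check list rose at 2 h and 4 h in both genotypes. Of the markers of other cells, 2 of 10 neutrophil, 3 of 10 lymphocyte and plasma cell, 0 of 5 dendritic cell, 1 of 6 stromal and 4 of 6 mast cell genes lay below the lower quartile on every array. The mean level of these lists ranged over KO and HET arrays from 8.09 to 8.69 and 7.67 to 8.64 (neutrophil), 7.15 to 7.29 and 7.22 to 7.49 (lymphocyte), 7.35 to 7.93 and 7.33 to 8.18 (dendritic), 7.34 to 7.85 and 7.34 to 8.06 (stromal) and 6.18 to 6.32 and 6.12 to 6.42 (mast). The highest neutrophil marker lay at the 86.0th percentile of mean signal, above the lowest macrophage marker. The highest of the lymphocyte, stromal, dendritic and mast cell lists lay at the 66.9th, 62.4th, 52.7th and 38.9th. In bulk RNA, fewer cells of a type and less RNA per cell cannot be told apart. Replicate 1 of HET was unlike its group at each time: pairs that include it had an SD of differences of 0.435 to 0.531, and the other pairs 0.175 to 0.279. A list of 15 cell cycle genes had a median of −3.23 (untreated), −3.14 (2 h) and −2.55 (4 h) in them relative to the other HET arrays. The LPS response list was higher in them, with a median of 0.60 untreated (7 of 10 genes above 0.5), 0.39 at 2 h and 0.22 at 4 h, so the untreated HET baseline of the LPS responses below holds 1 such array. Calls that change without these 3 arrays are given below, and the part of these differences in the results was not tested.

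At 4 h of LPS, few ER stress genes of KO macrophages and many of HET macrophages passed the test as lower than in untreated cells. The counts lay closer by overlap of arrays. In KO, 11 members had all 4 h arrays below all untreated ones, and in HET 14 (4674 and 4238 of all 19475 genes). In each genotype 2 members had them above (3307 and 4821 of all genes). In KO, 2 members fell (9.28% of all genes fell) and 1 rose (6.48% of all genes rose), with a median of −0.10 against 0.02 over all genes. In HET, 15 fell and 1, Ppp1r15a, rose, with limma (adjusted p under 0.05 by Benjamini-Hochberg across the 19475 genes, as for every adjusted p below). Among all genes tested, 20.7% fell and 15.7% rose in HET, and the members' median change there was −0.24, against 0.09 over all genes. The 15 were 1 of 8 genes of the PERK/ATF4 branch, 6 of 11 of the IRE1/XBP1 branch and 8 of 13 of the ATF6 branch. No test of a difference between the branches was made. The 2 h and 4 h responses of a genotype share their untreated arrays.

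With each array centred on its median, 10 members fell and 2 rose in HET at 4 h, Trib3 being the added one. Calr, Dnajb11, Hsp90b1, Manf and Sdf2l1 did not pass, and the share of all genes called with that centring is not given. Without HET replicate 1, 9 fell and 1 rose in HET at 4 h (35.5% of all genes changed), and the calls of Calr, Derl1, Dnajb11, Herpud1, Hsp90b1 and Manf were lost. Arrays of the same number and genotype deviate together, so the number was also used as a block within genotype. In KO at 4 h the block gave 4 lower and 2 higher (28.6% of all genes changed), with Dnajb9 and Sdf2l1 added among the lower and Ero1a among the higher. With that block, 20 members fell and 3 rose in HET at 4 h (55.0% of all genes changed), the added ones being Atf4, Canx, Ddit3, Pdia3 and Pdia6 among those that fell and Ero1a and Trib3 among those that rose. Without HET replicate 1, the KO response at 4 h, which keeps its own arrays but shares the estimate of spread, had 7 lower and 2 higher (27.7% of all genes changed), with Dnajb9, Dnajc3, Hyou1, Pdia4 and Sdf2l1 added among the lower and Ero1a among the higher.

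At 2 h fewer members had moved. In KO, Herpud1 alone rose (2.0% of all genes rose), and no member fell (1.35% of all genes fell). In HET, 3 rose (Ppp1r15a, Herpud1 and Ero1a; 5.56% of all genes rose) and 3 fell (Eif2ak3, Ern1 and Ddit3; 10.0% of all genes fell). With the block, the KO response at 2 h had 3 higher, Ero1a and Ppp1r15a being added (8.14% of all genes changed), and the HET response had 3 higher and 6 lower, with Derl1, Dnajb9 and Sdf2l1 added (27.8% of all genes changed). Without HET replicate 1, the KO response at 2 h had 2 higher and 2 lower, with Ppp1r15a, Eif2ak3 and Ern1 added (8.36% of all genes changed).

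**Figure D1:**
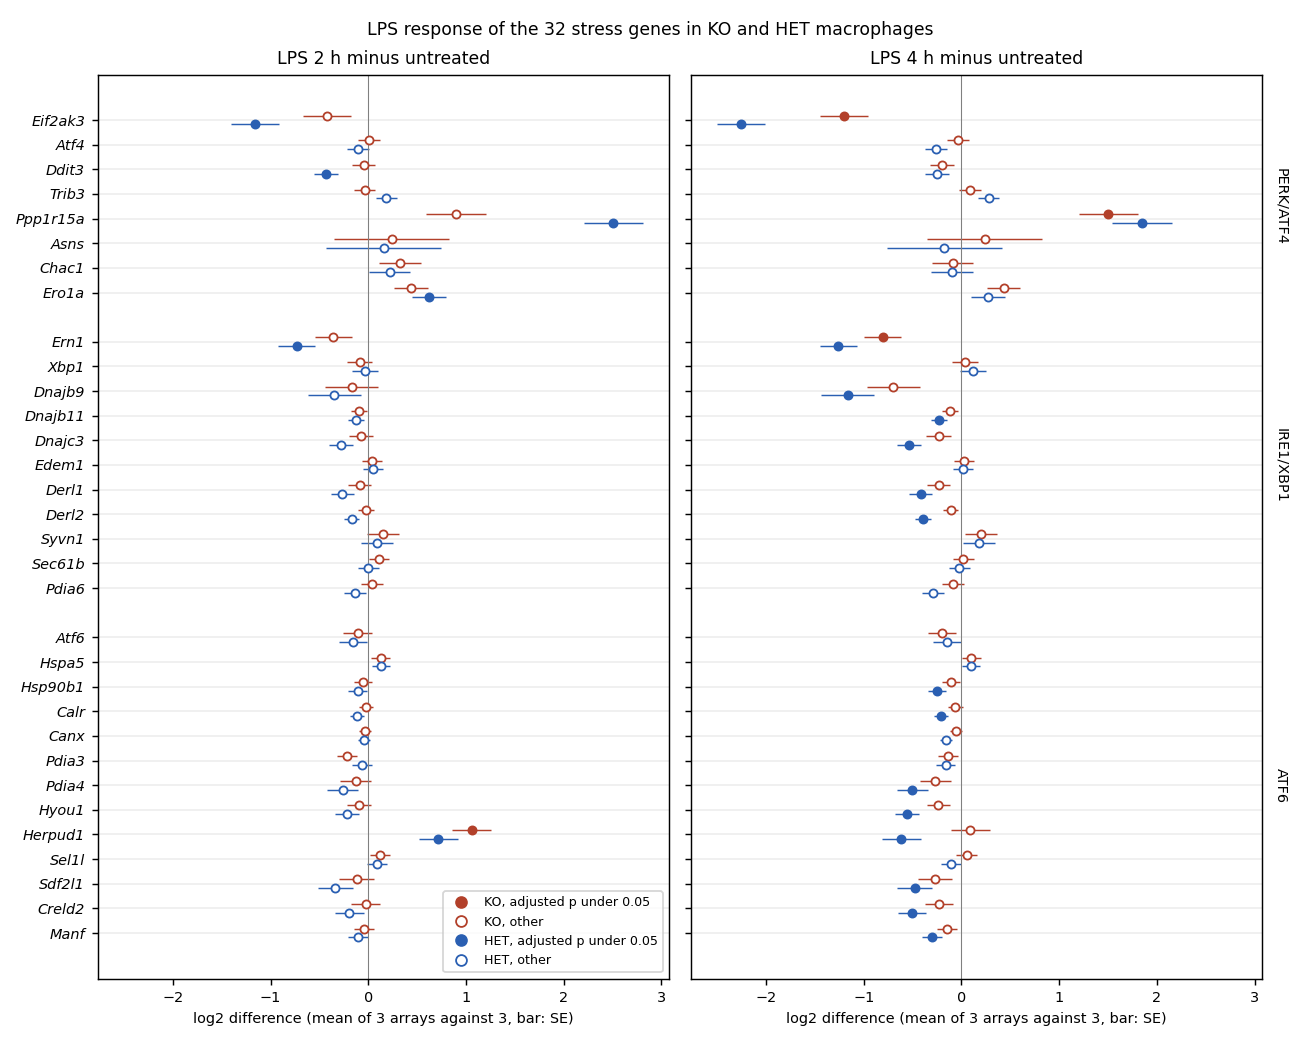
LPS minus untreated for each of the 32 genes at 2 h (left) and 4 h (right), in log2 units. Points are differences of means of 3 arrays against 3, with KO in red above HET in blue, bars are standard errors and filled points passed the test. At 4 h most points of the IRE1/XBP1 and ATF6 branches lie left of 0, and those of HET lie further left than those of KO for Eif2ak3 (−1.20 in KO and −2.26 in HET) and Ern1 (−0.81 in KO and −1.26 in HET).

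Of the sensors, Eif2ak3, which encodes PERK, changed most. In KO cells it measured 10.12, 10.22 and 10.29 untreated, 9.69, 9.87 and 9.79 at 2 h and 8.81, 9.36 and 8.86 at 4 h. In HET cells it measured 10.10, 9.98 and 10.00 untreated, 8.27, 9.20 and 9.13 at 2 h and 7.18, 7.97 and 8.16 at 4 h. Every LPS-treated array lay below every untreated array of its genotype, and the lowest array at each treated time was HET replicate 1. At 4 h it fell by 1.20 in KO (SE 0.245, adjusted p = 0.00286, a 2.3-fold lower level) and by 2.26 in HET (SE 0.245, adjusted p = 5.31e-06, 4.79-fold lower). At 2 h the change in KO was −0.43 (adjusted p = 0.57), and in HET it fell by 1.16 (adjusted p = 0.00388). The change at 4 h against 2 h was −0.78 in KO (adjusted p = 0.1, and 0.0137 with the replicate block). When HET replicate 1 was left out, it passed in KO both at 2 h and for 4 h against 2 h (adjusted p = 0.000898 for the second). In HET it fell over that interval by 1.10 (adjusted p = 0.0114), a call lost without HET 4 h replicate 1, HET 2 h replicate 2 or HET 2 h replicate 3 (adjusted p 0.0516 to 0.0715).

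Ern1, which encodes the sensor IRE1, also fell in both genotypes at 4 h. It measured 11.08, 11.10 and 11.28 in untreated KO cells, 10.80, 10.75 and 10.83 at 2 h and 10.21, 10.51 and 10.31 at 4 h. In HET cells it measured 11.95, 11.04 and 11.15 untreated, 10.89, 10.58 and 10.46 at 2 h and 9.98, 10.04 and 10.34 at 4 h. The untreated HET replicate 1 array was the highest of the 18, and in each genotype the 4 h arrays lay below the untreated ones. The fall at 4 h was 0.81 in KO (SE 0.189, adjusted p = 0.00737) and 1.26 in HET (SE 0.189, adjusted p = 9.71e-05). At 2 h Ern1 fell by 0.73 in HET (adjusted p = 0.0143), and without HET 2 h replicate 3 its change there was −0.64 (adjusted p = 0.0547). Without HET untreated replicate 1, the highest array, it fell by 0.45 (adjusted p = 0.041). Ern1 also passed in KO at 2 h and for 4 h against 2 h when HET replicate 1 was left out at all times. The sensor gene Atf6 did not pass in either genotype (4 h change −0.20 in KO and −0.15 in HET, SE 0.144).

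The factors downstream of the sensors changed little as transcripts. Total Xbp1 lay between 12.41 and 12.94 on all 18 arrays, and its change at 4 h was 0.04 in KO (95% interval −0.247 to 0.317) and 0.12 in HET (−0.162 to 0.402). The probe set reads the total transcript as deposited, and splicing was not measured. Atf4, whose protein is set mainly by translation, changed by −0.04 in KO (SE 0.112) and −0.26 in HET (adjusted p = 0.0818) at 4 h. The HET change passed with the replicate block (adjusted p = 0.0396). Ddit3, which encodes the pro-apoptotic factor CHOP, measured 9.01, 8.91 and 9.07 in KO and 8.91, 8.64 and 8.48 in HET at 2 h of LPS. Untreated, it measured 9.19, 8.90 and 9.05 in KO and 9.32, 9.11 and 8.88 in HET. It fell in HET at 2 h, by 0.43 (adjusted p = 0.0254), although the treated and untreated arrays overlap, and the call was lost on leaving out HET untreated replicate 1 or 2, or HET 2 h replicate 2 or 3, and with quantile normalization (−0.24, adjusted p = 0.43). Against their own untreated array of the same number, the 3 HET arrays at 2 h were lower by similar amounts (−0.42, −0.47 and −0.40).

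Among the 8 genes of the PERK/ATF4 branch, Ppp1r15a had the largest called rise. Its product, GADD34, recruits a phosphatase that reverses eIF2 phosphorylation, and it is also known as an LPS-induced gene. It measured 8.01, 8.16 and 8.05 in untreated KO cells, 9.12, 8.75 and 9.04 at 2 h and 9.87, 9.24 and 9.62 at 4 h. In HET cells it measured 8.07, 8.05 and 7.89 untreated, 11.45, 9.82 and 10.27 at 2 h and 10.30, 9.66 and 9.59 at 4 h. All treated arrays lay above all untreated ones; in HET the mean was highest at 2 h and in KO at 4 h, and HET replicate 1 was the highest array at both times. The change at 2 h was 0.90 in KO (adjusted p = 0.169, and 0.0217 with the replicate block), and in HET it rose by 2.51 (SE 0.304, adjusted p = 4.04e-05, 5.69-fold). At 4 h it rose 2.83-fold in KO (adjusted p = 0.00267) and 3.6-fold in HET (adjusted p = 0.000226). For 4 h against 2 h the KO change was 0.60 (adjusted p = 0.411, and 0.0199 without HET replicate 1).

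Of the remaining outputs of the PERK/ATF4 branch, Ero1a rose in HET at 2 h. Ero1a, an oxidase that drives disulfide formation in the ER and is known to be induced through CHOP and by hypoxia, measured 12.07, 12.38 and 12.19 in KO and 12.60, 11.91 and 12.18 in HET at 2 h. Untreated, it measured 11.76, 11.97 and 11.59 in KO and 11.86, 11.37 and 11.60 in HET, and the groups did not overlap in either genotype. Its change in KO at 2 h was 0.44 (adjusted p = 0.285, and 0.0172 with the replicate block). At 4 h the KO change was 0.43 (adjusted p = 0.113, and 0.0295 without HET replicate 1) and the HET change 0.27 (adjusted p = 0.219). At 2 h it rose by 0.62 in HET (SE 0.172, adjusted p = 0.0224), a call lost without HET 2 h replicate 1 or HET untreated replicate 2 or 3. Trib3, a pseudokinase that restrains ATF4 and CHOP, changed by 0.09 in KO and 0.28 in HET at 4 h (adjusted p = 0.658 and 0.058). Chac1, a glutathione-degrading enzyme, changed by −0.09 in KO and −0.10 in HET at 4 h (SE 0.213). Asns, asparagine synthetase, changed by 0.24 in KO and −0.17 in HET, with an SE of 0.588 that comes from a pattern described further below.

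**Figure D2:**
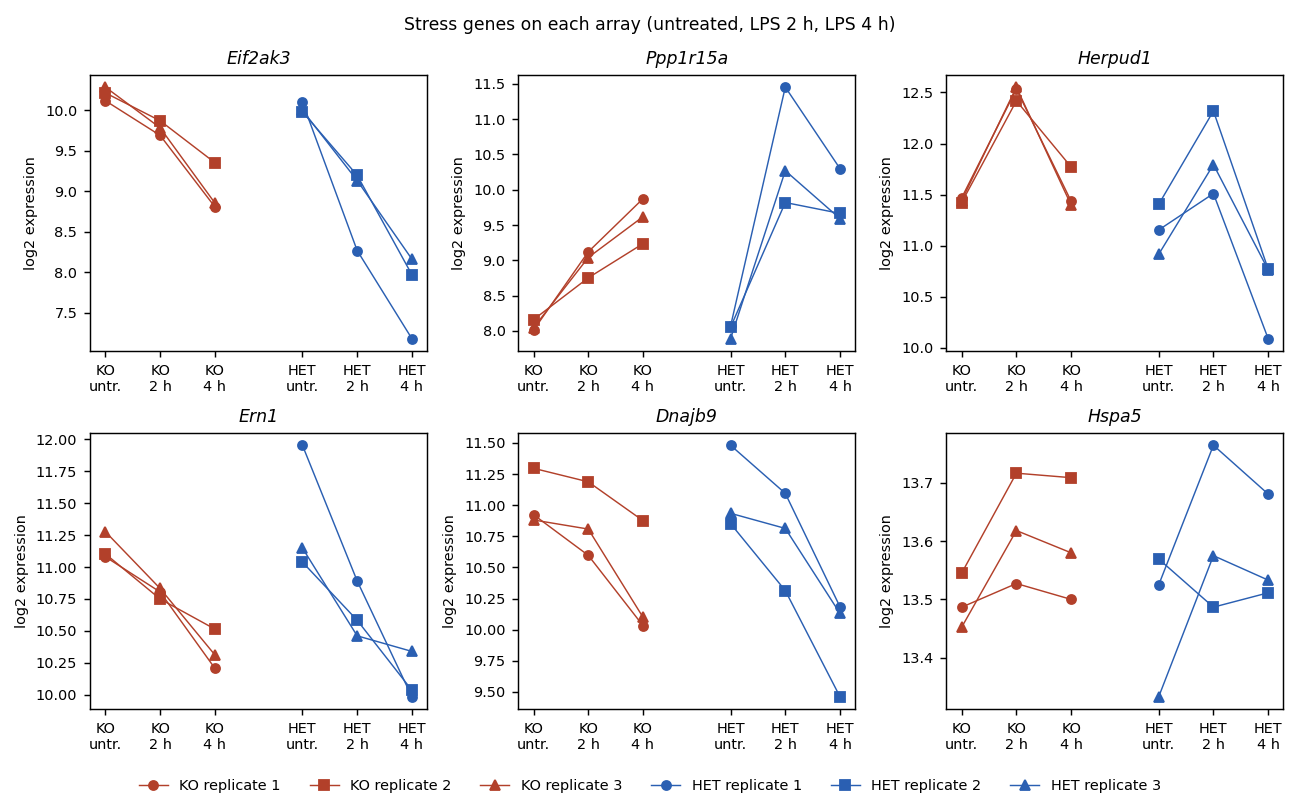
Log2 expression on every array for Eif2ak3, Ppp1r15a, Herpud1, Ern1, Dnajb9 and Hspa5, with KO (red) left of HET (blue) and, within each genotype, untreated, LPS 2 h and LPS 4 h. Lines join arrays of the same replicate number, and each panel has its own scale, that of Hspa5 spanning under 0.5 log2 units. Eif2ak3 steps down on every line, while Herpud1 peaks at 2 h on every line.

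The ER chaperones and folding enzymes were mostly lower in HET at 4 h: 10 of 15 fell, where 20.7% of all genes fell, with a median of −0.29. Calr, Dnajb11, Hsp90b1 and Manf no longer passed without HET replicate 1, which leaves 6 of the 15. In that fit 35.5% of all genes changed in either direction. Dnajb9, a J-domain co-chaperone that represses IRE1, moved most: it measured 10.03, 10.88 and 10.10 in KO and 10.18, 9.46 and 10.13 in HET at 4 h. Untreated, it measured 10.92, 11.30 and 10.88 in KO and 11.48, 10.85 and 10.93 in HET. Treated and untreated arrays did not overlap in either genotype. The change was −0.70 in KO (adjusted p = 0.102, 0.000436 with the replicate block and 0.0452 without HET replicate 1), and in HET it fell by 1.16 (SE 0.27, adjusted p = 0.00346). Arrays of the same number differed by −0.89, −0.42 and −0.78 in KO and by −1.30, −1.39 and −0.80 in HET.

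The other falls among folding genes in HET at 4 h were smaller. They were Hyou1, a large ER chaperone (−0.56, SE 0.122, adjusted p = 0.00221), Dnajc3, a co-chaperone that also inhibits PERK (−0.53, adjusted p = 0.00341), the disulfide isomerase gene Pdia4 (−0.50, adjusted p = 0.0219), Creld2 (−0.50, adjusted p = 0.0139) and Sdf2l1 (−0.48, adjusted p = 0.0479). Manf, a secreted ER stress protein, fell by 0.30, Hsp90b1, the ER form of HSP90, by 0.25, Dnajb11 by 0.23 and the lectin chaperone Calr by 0.21, with adjusted p between 0.0347 and 0.0456. The KO changes of these 9 genes at 4 h ran from −0.27 (Sdf2l1 and Pdia4) to −0.06 (Calr), and none passed in the fit of all arrays. Dnajc3, Hyou1, Pdia4 and Sdf2l1 passed in KO (adjusted p 0.0171 to 0.0468) without HET replicate 1, which leaves their KO changes as they are and lowers their SE. Without those arrays the HET changes were −0.31 for Hyou1 and Sdf2l1, −0.28 for Pdia4 and −0.29 for Creld2, all still called. Leaving out HET 4 h replicate 1 alone gave −0.26 for Pdia4, −0.28 for Creld2, −0.24 for Sdf2l1, −0.15 for Hsp90b1 and −0.13 for Calr, none called. With quantile normalization Manf changed by −0.14 (adjusted p = 0.37), while Hsp90b1 and Calr fell by 0.43 and 0.38. Of the 9, only Hyou1 and Dnajc3 kept their calls whichever single HET array was left out. For Creld2, HET 4 h replicate 1 was the only single array whose removal ended the call (adjusted p = 0.051).

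Hspa5, which encodes BiP, the main ER chaperone and the usual marker of ER stress, did not follow them. It measured 13.50, 13.71 and 13.58 in KO and 13.68, 13.51 and 13.53 in HET at 4 h, against 13.49, 13.54 and 13.45 in untreated KO and 13.52, 13.57 and 13.33 in untreated HET. The groups overlap, and the change was 0.10 in KO (95% interval −0.098 to 0.301) and 0.10 in HET (−0.1 to 0.299). Canx and the isomerase genes Pdia3 and Pdia6 changed by −0.05, −0.14 and −0.09 in KO and by −0.16, −0.16 and −0.29 in HET (adjusted p = 0.0526, 0.206 and 0.0548). Of the 8 genes with an ERSE, printed above, none passed in KO at 4 h in the fit of all arrays (9.28% of all genes fell). In HET, 4 of the 8 fell (Calr, Creld2, Dnajc3 and Hsp90b1), where 20.7% of all genes fell, and Hspa5, Pdia6, Canx and Syvn1 did not pass. The calls of Calr and Hsp90b1 were lost without HET replicate 1 and with median centring, while Dnajc3 also passed in KO without HET replicate 1.

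Among the ERAD and translocation genes, Herpud1, which encodes a ubiquitin-like protein of the ERAD complex, rose early and then fell. It measured 11.47, 11.42 and 11.44 in untreated KO cells, 12.53, 12.42 and 12.55 at 2 h and 11.43, 11.77 and 11.40 at 4 h. In HET cells it measured 11.15, 11.40 and 10.91 untreated, 11.51, 12.32 and 11.79 at 2 h and 10.09, 10.77 and 10.76 at 4 h. In both genotypes all 2 h arrays lay above all untreated arrays; at 4 h the KO arrays overlapped their untreated arrays and the HET arrays lay below theirs. At 2 h it rose by 1.06 in KO (SE 0.202, adjusted p = 0.00566, 2.08-fold) and by 0.72 in HET (adjusted p = 0.024). At 4 h against 2 h it fell by 0.97 in KO (adjusted p = 0.0103; 1.69% of all genes fell) and by 1.33 in HET (adjusted p = 0.000802; 4.39% of all genes fell). At 4 h against untreated cells the KO change was 0.09 (adjusted p = 0.813), and in HET it fell by 0.62 (adjusted p = 0.0265).

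Some of these Herpud1 calls rested on single arrays. That at 2 h in HET was lost without HET untreated replicate 1 or 3 or HET 2 h replicate 2. That at 4 h in HET was lost without HET 4 h replicate 1 (−0.39, adjusted p = 0.156), without HET untreated replicate 2 and with repeated quantile normalization (adjusted p = 0.0643). The KO fall from 2 h to 4 h was lost without KO 4 h replicate 1 or 3 (adjusted p 0.0582 and 0.0606). From 2 h to 4 h, Herpud1 was the only member called in KO and, with Eif2ak3, 1 of 2 in HET. The replicate block gave 3 lower in KO (11.1% of all genes changed), with Dnajb9 and Eif2ak3 added, and 6 lower in HET (18.7% of all genes changed), with Derl2, Dnajb9, Ern1 and Ero1a added.

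The other ERAD genes moved less. Derl1 and Derl2, subunits of the channel through which misfolded proteins leave the ER, changed by −0.23 and −0.11 in KO at 4 h. In HET they fell by 0.42 (SE 0.118, adjusted p = 0.0125) and 0.39 (SE 0.0791, adjusted p = 0.00115). Derl2 measured 10.65, 10.84 and 10.87 in KO and 10.53, 10.52 and 10.41 in HET at 4 h, and its 3 HET arrays lay below all 15 others. The ubiquitin ligase gene Syvn1, its partner Sel1l, the mannosidase-like Edem1 and the translocon subunit Sec61b did not pass at any time in either genotype. Their changes at 4 h lay between 0.02 and 0.20 in KO and between −0.11 and 0.18 in HET.

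Between genotypes, no member differed in untreated cells (limma, 0.416% of all genes were called, and no member reached an unadjusted p under 0.05). With LPS, 3 members differed. At 2 h Ppp1r15a was lower in KO (1 of 32, with 2.76% of all genes called), and at 4 h Eif2ak3 and Herpud1 were higher in KO (2 of 32, with 2.42% of all genes called). The members' shares were 3.12% at 2 h and 6.25% at 4 h, which rest on 1 and 2 genes. The median KO minus HET difference of the members was 0.02 untreated, 0.11 at 2 h and 0.19 at 4 h, against −0.02, 0.00 and −0.06 over all genes. These comparisons use the same arrays as the LPS responses above.

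Ppp1r15a at 2 h measured 9.12, 8.75 and 9.04 in KO and 11.45, 9.82 and 10.27 in HET, as given above, and the groups did not overlap. The mean was 8.97 ± 0.193 in KO and 10.51 ± 0.844 in HET (SD, n = 3 each). The difference was −1.54 (SE 0.304, adjusted p = 0.0162, 2.91-fold lower in KO), and −1.07 without HET replicate 1 (adjusted p = 0.00613). It was not called without KO 2 h replicate 2 (−1.43, adjusted p = 0.0706) or in a fit of the 6 arrays alone (adjusted p = 0.22). At 4 h the groups overlap, and the difference was −0.28 (adjusted p = 0.573). Ddit3 differed at 2 h by 0.32 (adjusted p = 0.199), and by 0.44 without HET replicate 1 (adjusted p = 0.0408).

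Eif2ak3 at 4 h was 9.01 ± 0.302 in KO and 7.77 ± 0.521 in HET (SD, n = 3 each), and every KO array lay above every HET array at all 3 times. The difference was 1.24 (SE 0.245, adjusted p = 0.0153, 2.36-fold), and 0.94 without HET replicate 1 at all times (adjusted p = 0.00211). At 2 h the difference was 0.92 (adjusted p = 0.0606), and it passed without HET replicate 1 (0.62, adjusted p = 0.0346). Herpud1 at 4 h was 11.53 ± 0.205 in KO and 10.54 ± 0.392 in HET, a difference of 0.99 (SE 0.202, adjusted p = 0.0173), and 0.77 without HET replicate 1 at all times (adjusted p = 0.0173). At 2 h it differed by 0.63 (adjusted p = 0.123), and its KO arrays lay above its HET arrays at all 3 times too. Both 4 h calls were lost without the single array HET 4 h replicate 1 (adjusted p = 0.0659 for Eif2ak3 and 0.0832 for Herpud1), without KO 4 h replicate 2 (0.105 and 0.114) and in a fit of the 6 arrays alone (0.136 and 0.13).

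**Figure D3:**
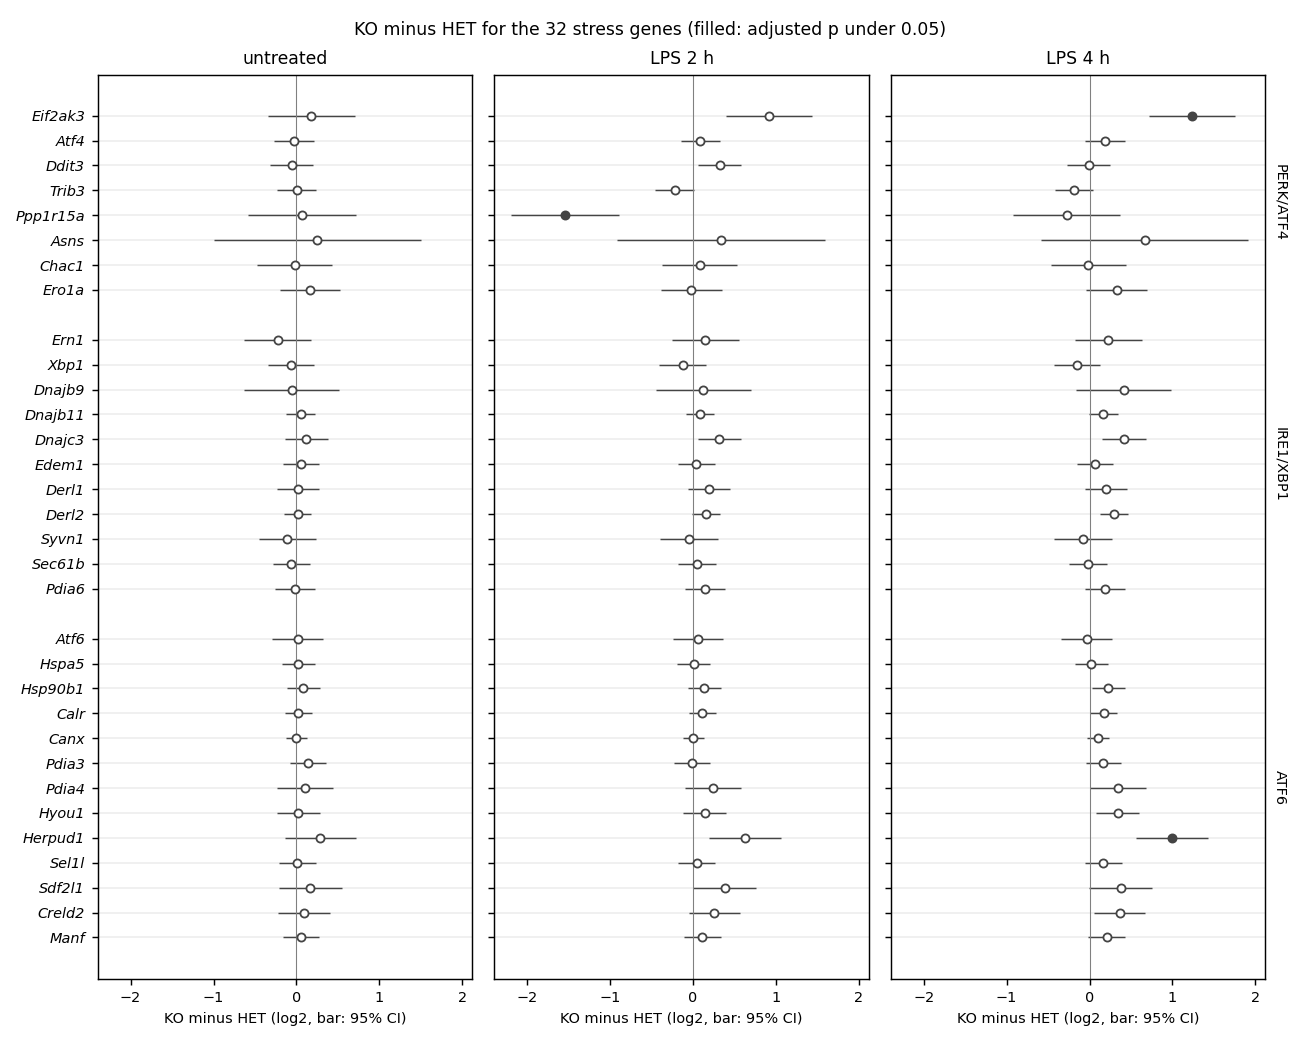
KO minus HET for each of the 32 genes, in log2 units, in 3 panels (untreated, LPS 2 h, LPS 4 h). Points are differences of means of 3 arrays against 3, bars are 95% intervals and filled points passed the test: Ppp1r15a at 2 h (−1.54), and Eif2ak3 (1.24) and Herpud1 (0.99) at 4 h. Most other intervals span 0, and the widest is that of Asns.

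Below the threshold, small differences of the chaperone genes lay on 1 side. At 4 h all 15 folding genes had a KO minus HET difference above 0, with a median of 0.23, and none was called. The closest to the threshold were Dnajc3 (0.42, adjusted p = 0.0848) and, among the ERAD genes, Derl2 (0.30, adjusted p = 0.0607). In the ATF6 branch 12 of 13 differences lay above 0 at each time, in the IRE1/XBP1 branch 5 of 11 untreated, 9 at 2 h and 8 at 4 h, and in the PERK/ATF4 branch 5 of 8 untreated, 5 at 2 h and 4 at 4 h. The share of all genes above 0 is not given, and their median at 4 h, given above, was below 0. Genes of a list share arrays and are not independent, so these counts were not tested. Without HET replicate 1 the ATF6 branch median at 4 h was 0.11, against 0.21 with it. At 4 h, 11 members had all KO arrays above all HET arrays and 0 the reverse (13.5% and 13.8% of all genes), and at 2 h the counts were 11 and 2 (12.1% and 7.86% of all genes). In untreated cells, 3 members (Eif2ak3, Herpud1 and Sdf2l1) had KO above HET and 0 the reverse (3.35% and 5.27% of all genes).

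The test of whether the LPS response itself differed between genotypes called no member at 2 h (0.0% of all genes called) or at 4 h (0.0513% of all genes called). An unadjusted p under 0.05 was reached by 2 members at 2 h and 3 at 4 h. The share of all genes that reached it is not given, so these counts are no result about the members. The response of Ppp1r15a at 2 h differed by −1.61 (SE 0.43, adjusted p = 0.483), that of Eif2ak3 at 4 h by 1.06 (SE 0.347, adjusted p = 0.486) and that of Herpud1 at 4 h by 0.71 (SE 0.285, adjusted p = 0.614). The median of the members was 0.10 at 2 h and 0.16 at 4 h, against 0.03 and −0.02 over all genes. The larger number of falls in HET than in KO at 4 h was therefore not shown as a difference in response for any single member.

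The spread of the members within groups was mostly like that of other genes, with a median SD of 0.151 against 0.149 over all genes. Ppp1r15a, Dnajb9 and Asns lay above the 90th percentile of spread, and Dnajb11, Derl2, Calr and Canx below the 10th. Asns, which makes asparagine and is a classical ATF4 target, stood out because its level followed the replicate number more than LPS. The largest change on arrays of the same number was that of HET replicate 1 at 4 h (−0.65 against untreated). Averaged over the 3 times it was 11.58, 12.56 and 11.70 in KO replicates 1, 2 and 3, and 10.52, 11.59 and 12.47 in HET replicates 1, 2 and 3. KO replicate 2 and HET replicate 3 were high at every time (12.42 to 12.60), and HET replicate 1 was low at every time (10.02 to 10.86). Of its variation within groups, 95.7% lay between replicate numbers, against a median of 63.5% for the members and 59% for all genes. The SD within groups was 0.806, at the 98.8th percentile.

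Genes of the serine and glycine pathway, also known ATF4 targets, had the same high arrays, as was noticed after their values were seen. Phgdh, the enzyme that starts serine synthesis, averaged 8.93, 10.00 and 9.19 in KO replicates 1, 2 and 3 and 8.59, 8.89 and 10.09 in HET replicates 1, 2 and 3. Slc6a9, a glycine transporter, and Shmt2, which turns serine into glycine in mitochondria, were likewise highest in KO replicate 2 and HET replicate 3 at each time. Of their variation within groups, 98.6% (Phgdh), 97.4% (Slc6a9) and 93.3% (Shmt2) lay between numbers. Over the 30 further ATF4 and stress targets measured, the median share was 78.4%. Trib3 (30.9%) and Atf4 itself (44.1%) had lower shares and were not highest in those arrays. A share does not say which arrays were high. Within each genotype, Ddit3 (83.3%) and Chac1 (61.4%) were on average lowest in KO replicate 2 and HET replicate 3. Ddit4 (83.2%) was highest in HET replicate 1. The arrays of KO replicate 2 and HET replicate 3 also deviated together at each time, by the correlation used for pairing below. It was r 0.574 untreated, 0.319 at 2 h and 0.561 at 4 h. Whether the pattern is particular to these genes was not tested. A replicate number marks neither a genotype nor a treatment, and what it stands for was not given.

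**Figure D4:**
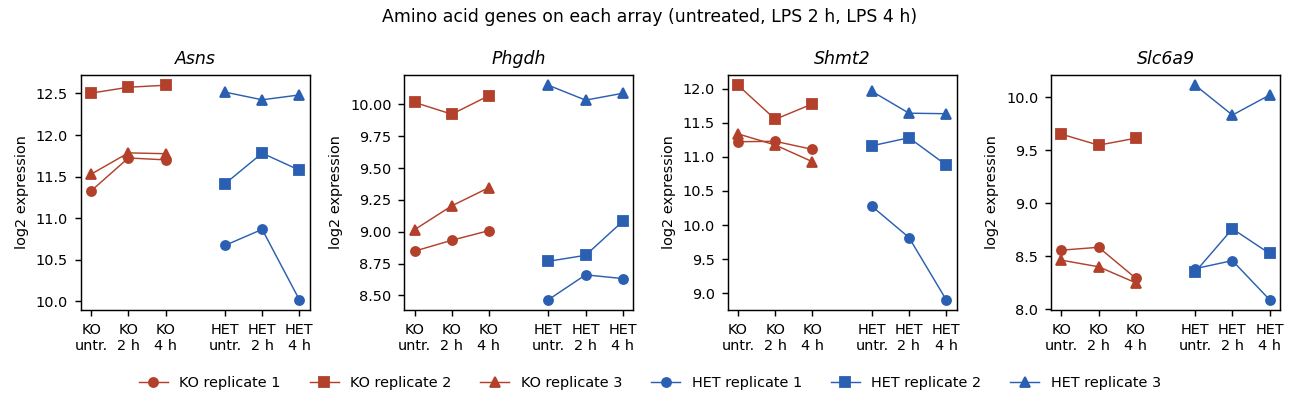
Log2 expression on every array for Asns and, chosen after their values were seen, Phgdh, Shmt2 and Slc6a9, with KO (red) left of HET (blue) and untreated, LPS 2 h and LPS 4 h within each. Lines join arrays of the same replicate number. Most lines are nearly flat and lie apart, KO replicate 2 and HET replicate 3 being highest in each panel. The Asns line of HET replicate 1 is not flat, with −0.65 at 4 h against its untreated array.

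Around the 32 genes, 96 further genes of the same pathways were measured: eIF2 kinases and exchange factors, ATF4 targets, other ERAD and folding genes, translocation and traffic genes, and a list of the ATF6 protease Mbtps1 with the related factors Atf6b, Creb3, Creb3l2 and Nfe2l2. At 4 h of LPS, 7 of the 96 (7.29%) rose and 4 (4.17%) fell in KO, where 6.48% of all genes rose and 9.28% fell. In HET 8 (8.33%) rose and 31 (32.3%) fell, where 15.7% of all genes rose and 20.7% fell. The highest was Slc7a11, the cystine transporter, with 4.25 in KO (adjusted p = 3.32e-05) and 3.93 in HET (adjusted p = 3.17e-05), followed by Eif2ak2, the double-stranded RNA kinase PKR, in KO (1.89) and by the stress-induced regulator Nupr1 in HET (2.36). Eif2ak4, the amino acid-sensing kinase GCN2, was the lowest in both, with −0.82 in KO (SE 0.166, adjusted p = 0.00253) and −1.52 in HET (SE 0.166, adjusted p = 5.5e-06). Cebpg, a partner of ATF4, fell by 0.72 in KO, and Sesn2, a sestrin, by 1.31 in HET. Of the falls in HET, 9 were among 20 translocation and traffic genes, 6 among 18 folding and glycan genes, 4 among 14 ERAD genes and 5 among 9 eIF2 kinases and factors. Mbtps1 and Creb3l2 fell as well, and the rest were among the 30 ATF4 targets. That list was the largest, and a smaller share of it fell than of any other list or of all genes. Counts of the 96 without HET replicate 1 or with median centring are not given.

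At 2 h, 5 of the 96 rose and 0 fell in KO, where 2.0% of all genes rose and 1.35% fell. In HET 7 (7.29%) rose and 7 (7.29%) fell, where 5.56% of all genes rose and 10.0% fell. Slc7a11 rose by 3.64 in KO and 4.05 in HET and Nupr1 by 1.77 in KO and 2.67 in HET, and Sesn2 (−1.48) and Eif2ak4 (−0.75) were the lowest in HET. The call of Nupr1 in KO was lost without KO 2 h replicate 1 or KO untreated replicate 2 or 3. From 2 h to 4 h, Eif2ak2 rose by 1.36 in KO and in HET by 0.74, a call lost with median centring, with quantile normalization and on leaving out HET 4 h replicate 1 or 2 or HET 2 h replicate 2 or 3. Wars, a tryptophan tRNA ligase, rose by 0.69 in HET over the same interval, and Eif2ak4 (−0.76) and Nfe2l2, the factor NRF2 (−0.65), fell. The fall of Eif2ak4 there was not called without HET 2 h replicate 2 (adjusted p = 0.0613).

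Between genotypes, 0 of the 96 differed untreated and at 4 h, and 1 differed at 2 h. An unadjusted p under 0.05 was reached by 1 of them untreated and by 22 at 4 h. The share of all genes that reached it is not given, so these counts are no result about the 96. Eif2ak2 at 2 h measured 10.63, 10.50 and 10.98 in KO and 12.08, 11.20 and 11.58 in HET, and the groups did not overlap. The difference was −0.92 (SE 0.214, adjusted p = 0.0337), and −0.68 without HET replicate 1 (adjusted p = 0.0932). It was also lost without HET 2 h replicate 3, without KO 2 h replicate 1 or 2 and in a fit of the 6 arrays alone (adjusted p 0.0714 to 0.224). No difference in response was called among the 96 at 2 h or 4 h.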

How the data were processed

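The authors deposited log2 expression values, computed with RMA in Partek 6.5, per the submitters' processing notes. They were used as deposited. The settings of RMA and the build are named nowhere in the labels. RMA sets array distributions nearly equal, so changes are relative to other genes. Of 25344 probe sets, 22667 had a gene, 1530 of them several, which were left out with the 2677 that had none. The 21137 others gave 19475 genes, and for 915 genes with several probe sets the one with the highest mean was used. The probe sets of Dnajc3 held identical values, and those of Sec61b gave no call.

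A mean for each of 6 groups (3 arrays each, 18 in all) was fitted with limma 3.58.1 in R 4.3.3 (12 residual degrees of freedom, prior 3.165). The threshold was an adjusted p of 0.05 (Benjamini-Hochberg) over all genes of the contrast. The model was tested on simulated data, but the outcome is not given and no call rests on it. Figures used Python 3.11.15 and matplotlib 3.10.9. Members, lists and tests were chosen with earlier results of these data known.

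The part of Wbp7 read by its probe set was not checked. Values on every array are given for members called between genotypes, for the members of each branch with the largest called LPS change in each direction, and for others chosen after seeing them. Of further lists, the 2 highest and 2 lowest called genes are named. Arrays of the same number deviated together within genotype (r 0.32 to 0.796 in 18 pairs), which is where the pairing comes from. Across genotypes those of the same number did not do so throughout (−0.353 to 0.39 in 27 pairs). All pairs of number 1 were positive (0.0204 to 0.39), and all pairs of numbers 2 and 3 were negative. Arrays of unlike genotype and number ran from −0.514 to 0.574 (54 pairs), the highest being untreated HET replicate 3 with untreated KO replicate 2. The alternatives were median centring, quantile normalization, genes below the 40th percentile left out (dim genes), the mean of probe sets, an intensity trend, array weights, the arrays of a contrast alone, a 2-fold minimum, replicate blocks and left-out arrays.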

Additional observations from a re-analysis of the deposited data

How the results depend on the processing

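No gene named as called changed its direction under any alternative tried. Among values of single called genes and of branch medians, 1366 of 1553 stayed as given, 127 gene values missed the threshold and 60 medians moved past the spread between arrays. The PERK/ATF4 median of KO minus HET at 2 h was 0.09, and −0.01 without HET replicate 1. Of 207 counts of called members 162 lay within 1.5 times the count given and 45 did not. Median centring, quantile normalization, the mean of probe sets and the intensity trend moved no such count past that limit. A fit of only the arrays of a contrast gave 0 members between genotypes at 2 h and 0 at 4 h, 4 and 7 for LPS in KO at 2 h and 4 h, 2 and 7 in HET, and 4 and 0 for 4 h against 2 h in KO and HET. This fit estimates the spread from those arrays alone. Array quality weights gave 3 between genotypes at 2 h and 4 at 4 h, 3 and 9 for LPS in KO and 4 for 4 h against 2 h in KO. Leaving out dim genes gave 2 between genotypes at 2 h. A 2-fold minimum, which removes smaller changes, gave 1 between genotypes at 4 h, 2 and 4 for LPS in HET at 2 h and 4 h and 0 for 4 h against 2 h in KO. A replicate block over all arrays gave 2 between genotypes at 2 h, 4 at 4 h and 2 for 4 h against 2 h in KO. The replicate block within genotype gave 3 and 6 for LPS in KO, 9 and 23 in HET, and 3 and 6 for 4 h against 2 h in KO and HET. As a random effect (correlation 0.398) it gave 3 and 5 in KO, 9 and 21 in HET, 2 and 6 for 4 h against 2 h, and the same members as given between genotypes. Without HET replicate 1 at all 3 times there were 3 between genotypes at 2 h, 4 and 9 for LPS in KO, 10 for LPS in HET at 4 h and 4 for 4 h against 2 h in KO. With each array left out in turn, the counts ranged from 0 to 3 between genotypes at 2 h and at 4 h, 8 to 18 for LPS in HET at 4 h (8 without HET 4 h replicate 1 and 9 without HET untreated replicate 2), 0 to 1 for 4 h against 2 h in KO and 1 to 3 in HET. Apart from the shares printed above, the share of all genes called in each setting is not given. The counts therefore describe the settings and are no result about the members. The cause was not tested for the arrays of a contrast alone, the weights, the dim genes and the blocks. There were 3 arrays a group, and HET replicate 1 moved many of the calls.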
